A study of Mus musculus with 16 samples.

Results

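The Notch pathway and secretory fate genes described here are 10 genes that were taken by symbol from a table of 20072 genes of the mouse small intestine. They are the ligand genes Dll1, Dll4 and Jag1, the receptor genes Notch1 and Notch2, the Hes genes Hes1 and Hes6, and the secretory transcription factor genes Atoh1, Gfi1 and Spdef. All 10 had an entry in the table. Of these, 9 took part in the test across all genes, as they had a level of at least 1 FPKM (fragments mapped per kilobase of a transcript, relative to the size of the library) in at least 4 of the 16 libraries. Jag1 reached that level in 3 libraries and was tested on its own. Gfi1 passed through the 4 crypt epi libraries alone, so that its entry into the test already required it to be high there.

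RNA had been sequenced in bulk from 16 libraries of sorted cells, 4 in each of 4 groups. Villus EC and crypt EC are the CFP-positive enterochromaffin cells of the villus and the crypt, which make most of the serotonin of the gut. Villus epi and crypt epi are the CFP-negative epithelial cells of the same sites, a mixture of every other epithelial type. All mice, in all 4 groups, had the genotype Tph1-CFP, a cyan fluorescent reporter of the gene of the serotonin-synthesising enzyme, and were untreated and 8 to 16 weeks old. The whole small intestine was used and 5000 cells were pooled for each library. Sorting rests on the Tph1 reporter, so CFP-negative cells may still hold endocrine cells without it. The labels give 4 mice or samples per group without saying which library came from which mouse, so the p-values measure the spread between these libraries, which may be technical.

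As background, Notch signalling works between neighbouring cells. A cell that carries a Delta or Jagged ligand activates the Notch receptor of its neighbour, whose intracellular part then joins RBPJ in the nucleus and turns on repressors such as Hes1. In the crypt, cells with active Notch become absorptive, whereas cells that escape it express Atoh1 and enter the secretory lineage of goblet, Paneth, tuft and endocrine cells. Gfi1 and Spdef act downstream of Atoh1 in Paneth and goblet cells, and Neurog3 starts the endocrine branch.

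On mm10 the members lie on chromosome 1 (Hes6, 91411483 to 91414038), chromosome 2 (Notch1, 26457903 to 26516663, Dll4, 119325784 to 119335962, and Jag1, 137081456 to 137116644) and chromosome 3 (Notch2, 98013527 to 98150361). The others lie on chromosome 5 (Gfi1, 107716657 to 107726036), chromosome 6 (Atoh1, 64729125 to 64731245), chromosome 16 (Hes1, 30064384 to 30067796) and chromosome 17 (Dll1, 15367354 to 15376872, and Spdef, 27714352 to 27728955). In the GENCODE annotation, exons of Dll1, Dll4, Gfi1 and Notch1 overlap exons of genes on the other strand, and those of Notch2 overlap a gene model on the same strand. The labels do not say that strand was used, so reads of these stretches cannot be told apart and the 5 genes carry that uncertainty.

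The promoters of 4 members are shown because these genes make up the pairs whose levels moved most alike, Dll4 with Hes6 and Atoh1 with Spdef. They come from RefSeq on GRCm38.p6, which held promoters for 9 of the 10 members, all except Hes1. Each run is written 5′ to 3′ on the strand of its gene and ends just before a first exon. For Hes6, RefSeq gave 2 start sites, and the run shown is that of the inner one, which lies within the gene's span. Capitals mark matches, on either strand, to TGGGAA (the core bound by RBPJ), CANNTG (the E-box of bHLH activators such as ATOH1), CACNAG (the N-box) and CACGCG (the class C site), both bound by Hes repressors.
Dll4, chr2:119325565-119325783, plus strand: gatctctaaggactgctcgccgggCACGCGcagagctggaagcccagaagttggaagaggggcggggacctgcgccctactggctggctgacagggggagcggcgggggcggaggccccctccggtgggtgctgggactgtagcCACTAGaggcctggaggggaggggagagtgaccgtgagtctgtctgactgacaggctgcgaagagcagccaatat
Hes6, chr1:91413223-91413472, minus strand: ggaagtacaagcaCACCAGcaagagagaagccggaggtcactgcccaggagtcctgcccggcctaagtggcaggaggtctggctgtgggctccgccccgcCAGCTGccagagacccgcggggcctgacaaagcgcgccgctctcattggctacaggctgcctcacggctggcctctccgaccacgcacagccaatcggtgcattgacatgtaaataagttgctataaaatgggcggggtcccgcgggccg
Atoh1, chr6:64728875-64729124, plus strand: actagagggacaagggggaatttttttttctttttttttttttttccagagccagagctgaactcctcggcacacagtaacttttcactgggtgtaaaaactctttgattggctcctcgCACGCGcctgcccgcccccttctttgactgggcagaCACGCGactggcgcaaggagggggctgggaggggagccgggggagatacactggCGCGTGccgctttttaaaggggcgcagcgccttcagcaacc
Spdef, chr17:27728956-27729201, minus strand: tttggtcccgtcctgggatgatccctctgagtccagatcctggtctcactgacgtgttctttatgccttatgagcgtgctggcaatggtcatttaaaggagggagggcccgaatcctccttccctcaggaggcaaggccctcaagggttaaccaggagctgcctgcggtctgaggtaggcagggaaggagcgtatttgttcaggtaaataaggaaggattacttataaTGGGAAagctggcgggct
The Atoh1 window held CACGCG at positions -131, -95 and -41 from the start site. The Dll4 window held CACGCG at -195 and CACNAG at -75, the Hes6 window shown CACNAG at -237 and CANNTG at -150 (the window of the outer start site, not shown, CANNTG at -220, -171 and -164), and the Spdef window TGGGAA at -22. Among 32851 promoter windows of 250 bases, 21.6% held TGGGAA, 66.2% CANNTG, 36.7% CACNAG and 7.62% CACGCG. The longer RBPJ form GTGGGAA, held by 5.42% of those windows, occurred in no member's window. A match is a run of letters and says nothing on binding.

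Deposited values summed to between 731415 and 1415123 FPKM per library, the depth behind them is unknown, and 11318 to 13071 genes per library reached 1 FPKM. The 8 enterochromaffin and endocrine markers summed to 155761 to 202004 FPKM in villus EC and 843 to 1321 FPKM in villus epi, and to 87435 to 117225 FPKM in crypt EC and 1477 to 2290 FPKM in crypt epi. Villus epi replicate 2 stood apart, since its correlation across genes with the rest of its group averaged 0.812, against 0.923 to 0.985 for the other libraries. It carried 166 FPKM of 9 endothelial and stromal markers, against 9.88 to 12.99 FPKM in the other villus epi libraries. The stromal gene Dcn stood at 130.3 FPKM. Of the endothelial genes, Pecam1 stood at 23.1 FPKM (1.25 to 3.29 FPKM in the other villus epi libraries) and Tek at 6.75 FPKM (5.10 to 5.73 FPKM). Kdr stood at 0.451 FPKM (0.0524 to 0.297 FPKM) and Cdh5 at 0.118 FPKM (0.0136 to 0.0384 FPKM). The 7 T cell markers of that library summed to 28.2 FPKM, against 2.45 to 8.80 FPKM in the other villus epi libraries. Of the 28.2 FPKM, 24.6 FPKM was Ptprc, a gene of all leukocytes. The T cell gene Cd3e stood at 0.663 FPKM there, within the 0.412 to 0.751 FPKM of the others. Results of the 10 genes that use villus epi are therefore given with and without it, and it also widens the error of comparisons that do not use it, since all groups shared one estimate of the spread. Scaling each library to the same total moved the median log2 fold change of all genes by 0.54 (villus, EC against epi), 0.50 (crypt, EC against epi), -0.20 (EC, villus against crypt) and -0.25 (epi, villus against crypt). The split of higher and lower calls then became 7961 and 1902 in the villus EC comparison (5724 and 3046 as deposited), 6119 and 1432 in the crypt EC comparison (3264 and 2824), 1143 and 3502 for villus against crypt in EC (1454 and 2282), and 1976 and 5978 in epi (2761 and 4994). Median-ratio scaling moved the median by -0.15 in the villus EC comparison and 0.19 for villus against crypt in epi.

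At both sites EC cells held more Dll4 than the other epithelial cells. In the villus they also held more Hes6 and less Hes1 and Notch1, and in the crypt less Dll1, Atoh1, Spdef and Notch2. Gfi1 was also lower in crypt EC, but its entry into the test rested on crypt epi. Of the 9 tested members, 2 were higher and 2 lower in EC than in epi of the villus, where 62.2% of all 14089 tested genes were called, 40.6% higher and 21.6% lower. In the crypt, 1 was higher and 5, Gfi1 among them, were lower in EC than in epi, where 43.2% of genes were called, 23.2% higher and 20.0% lower. The median log2 fold change of the tested members was -0.13 in the villus and -1.51 in the crypt, beside 0.33 and 0.05 over all tested genes. The crypt median includes Gfi1, so it partly restates the filter. A gene was called at a Benjamini-Hochberg adjusted p below 0.05 by limma, and log2 fold changes are of FPKM + 1, which understates those of low genes. Without villus epi replicate 2, 2 members were higher and 3 lower in the villus, and 2 higher and 6 lower in the crypt, where 74.9% and 64.5% of all genes were called.

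**Figure D1:**
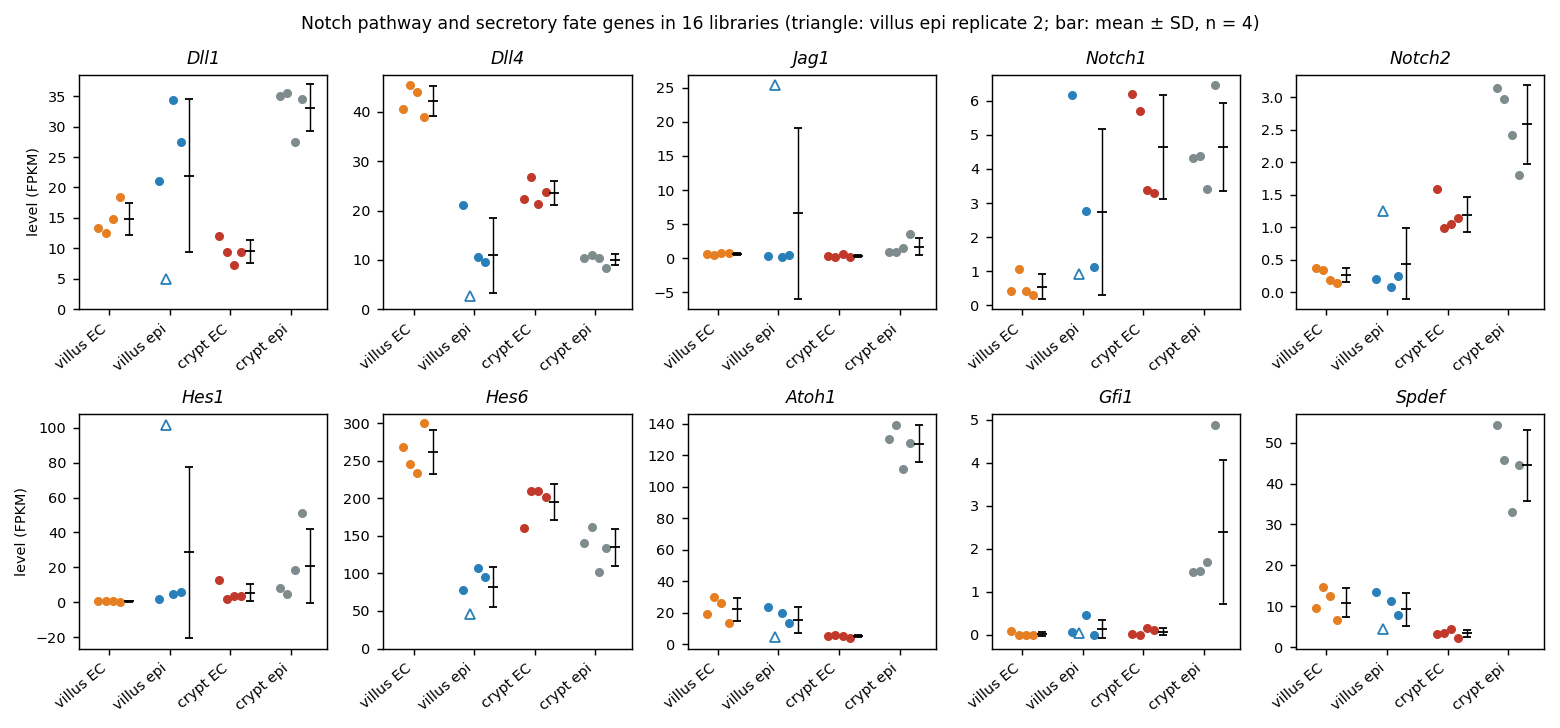
Level of each gene in FPKM in every library, in villus EC, villus epi, crypt EC and crypt epi, with the mean ± SD of 4 libraries beside the points and villus epi replicate 2 as a triangle. Dll4 and Hes6 stand highest in villus EC, Atoh1, Spdef and Gfi1 in crypt epi, and the triangle lies far above its group for Hes1, Jag1 and Notch2.

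Dll4, a Delta ligand known mostly from vessels and also made by secretory cells of the crypt, was called higher in EC cells at both sites, which neither Dll1 nor Jag1 was. It stood at 40.5, 45.4, 44.1 and 38.9 FPKM in the villus EC libraries, against 21.1, 2.62, 10.5 and 9.51 FPKM in the villus epi libraries. Every villus EC library lay above every villus epi library, and the lowest was villus epi replicate 2. The level rose by 2.12 ± 0.36 log2 units (SE, adjusted p = 0.000111), and by 1.63 ± 0.19 without that library. In the crypt, Dll4 stood at 22.3, 26.8, 21.3 and 23.7 FPKM in EC, against 10.4, 11.1, 10.3 and 8.42 FPKM in epi. The groups did not overlap, and the rise was 1.15 ± 0.36 log2 units (adjusted p = 0.0181).

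Between the sites, Dll4 averaged 42.2 ± 3.04 FPKM in villus EC and 23.5 ± 2.40 FPKM in crypt EC (SD, n = 4 each), and all 4 villus libraries were above all 4 crypt libraries. That difference of 0.82 log2 units missed the threshold (adjusted p = 0.119) in the fit of all libraries and passed it without villus epi replicate 2. In epi it averaged 11.0 ± 7.64 FPKM in the villus and 10.05 ± 1.13 FPKM in the crypt, with overlapping libraries and a difference of -0.15 log2 units (adjusted p = 0.753), which became 0.34 without the library that stood apart and 0.05 under median-ratio scaling. The 9 endothelial and stromal markers summed to 16.1 to 25.2 FPKM in villus EC, and to 20.2 to 36.3 FPKM in crypt EC and 2.81 to 4.08 FPKM in crypt epi. Most of this was Pecam1 in the EC groups (13.3 to 21.6 FPKM in villus EC and 16.8 to 33.0 FPKM in crypt EC). The endothelial gene Cdh5 was at most 0.383 FPKM in villus EC and 0.0653 FPKM in crypt EC. Kdr, another, stood at 0.187 to 0.386 FPKM in crypt EC, above the 0.0700 to 0.161 FPKM of crypt epi. Tek stood at 0.201 to 0.607 FPKM in villus EC, below the 5.10 to 6.75 FPKM of villus epi. The part of endothelial cells in the Dll4 levels was not tested.

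Dll1, the Delta ligand that secretory progenitors show to their neighbours, went the other way in the crypt. Its level was 11.97, 9.36, 7.22 and 9.45 FPKM in crypt EC, against 35.0, 35.5, 27.4 and 34.5 FPKM in crypt epi. No library of one group reached the other, and the level fell by 1.71 ± 0.40 log2 units in crypt EC (adjusted p = 0.00259). In the villus it was 13.4, 12.6, 14.8 and 18.5 FPKM in EC, against 21.0, 4.93, 34.3 and 27.5 FPKM in epi. Villus epi replicate 2 was the lowest of these 8 libraries and the other 3 villus epi libraries the highest. The difference was -0.28 ± 0.40 log2 units with that library (adjusted p = 0.56), a value whose sign turned under equal totals (0.31), and -0.84 ± 0.18 without it, which passed the threshold. Between the sites, Dll1 averaged 14.8 FPKM in villus EC and 9.50 FPKM in crypt EC, with no overlap. That difference of 0.60 log2 units was not called in the fit of all libraries and passed the threshold without villus epi replicate 2. In epi the villus and crypt libraries overlapped, and the difference of -0.83, or -0.27 without that library, was called in neither fit.

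The ratio of the Delta ligands within a library was chosen after the values had been seen, so it restates them and is given with no test. The log2 ratio of Dll4 to Dll1 averaged 1.46 ± 0.31 in villus EC and -0.94 ± 0.74 in villus epi (SD, n = 4 each), a difference of 2.40. In crypt EC it averaged 1.24 ± 0.28 and in crypt epi -1.63 ± 0.24, a difference of 2.86. Each EC library had more Dll4 than Dll1, and each epi library had more Dll1 than Dll4 except villus epi replicate 1, which held 21.1 FPKM of Dll4 and 21.0 FPKM of Dll1. Between sites the ratio differed by 0.23 in EC and 0.69 in epi.

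**Figure D2:**
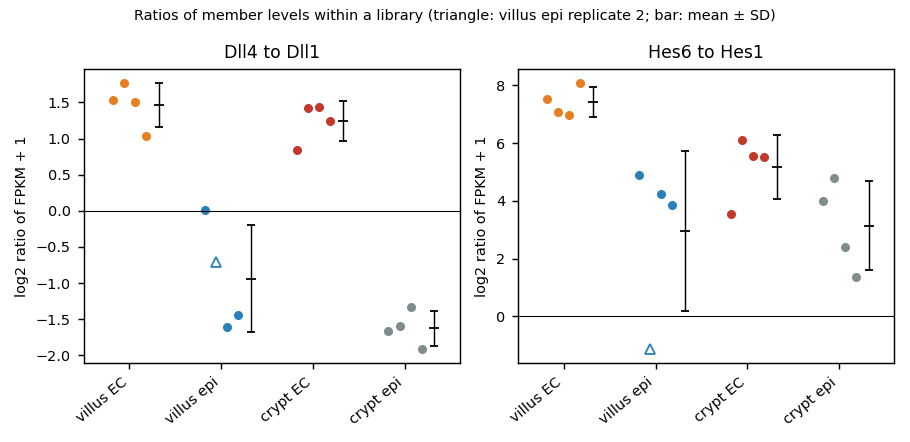
Log2 ratio of FPKM + 1 of Dll4 to Dll1 and of Hes6 to Hes1 in every library of the 4 groups, with the mean ± SD beside the points. The Dll4 to Dll1 ratio is above 0 in all EC libraries and at or below about 0 in all epi libraries, and the Hes6 to Hes1 ratio is lowest in villus epi replicate 2, drawn as a triangle.

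Jag1, a Jagged ligand, was low in nearly all libraries. It stood at 0.671, 0.490, 0.738 and 0.831 FPKM in villus EC, against 0.250, 25.4, 0.221 and 0.533 FPKM in villus epi. The single high value was that of villus epi replicate 2, the library with the endothelial and stromal markers and Ptprc, whose part in it was not tested. In the crypt it was 0.285, 0.227, 0.611 and 0.243 FPKM in EC, against 0.879, 0.944, 1.48 and 3.50 FPKM in epi. Crypt EC lay below crypt epi in every library, with a difference of -0.92 log2 units (exact permutation test, two-sided, p = 0.0286, the smallest that 4 libraries against 4 can give), whereas limma over the unfiltered table gave an adjusted p of 0.407. The villus difference was -0.74 with villus epi replicate 2 (exact p = 0.971) and 0.34 without it (exact p = 0.0857). Between sites it was 0.33 in EC (exact p = 0.0571), and 0.15 in epi (exact p = 1.0) or -0.93 without that library (exact p = 0.0571).

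Notch1, the main receptor of crypt progenitors, fell in villus EC. Its level was 0.406, 1.07, 0.427 and 0.295 FPKM in villus EC, against 6.18, 0.926, 2.75 and 1.11 FPKM in villus epi. The groups overlapped at 1 library each, villus EC replicate 2 and villus epi replicate 2. The level fell by 1.09 ± 0.35 log2 units (adjusted p = 0.0142), by 1.34 without villus epi replicate 2, and the call was lost under equal totals and in a fit of these 2 groups alone. In the crypt it averaged 4.64 ± 1.52 FPKM in EC and 4.64 ± 1.29 FPKM in epi (SD, n = 4 each), with a difference of -0.01 log2 units (adjusted p = 0.984) that became 0.44 under equal totals. Villus EC was below crypt EC in every library (log2 fold change -1.85 ± 0.35, adjusted p = 0.000991), and the difference between the sites in epi was -0.77 (adjusted p = 0.0755), or -0.53 without the library that stood apart.

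Notch2, which acts together with Notch1 in the crypt, was low throughout. In the villus it stood at 0.376, 0.349, 0.193 and 0.150 FPKM in EC, against 0.208, 1.24, 0.0773 and 0.248 FPKM in epi. These groups overlapped and villus epi replicate 2 was again the highest. The difference was -0.13 log2 units (adjusted p = 0.61), 0.10 without that library and 0.00 under equal totals. Crypt EC held 1.59, 0.987, 1.06 and 1.15 FPKM, against 3.13, 2.97, 2.42 and 1.80 FPKM in crypt epi. Every crypt EC library was below every crypt epi library, and the fall passed the threshold (log2 fold change -0.70 ± 0.21, adjusted p = 0.0127), which it missed under equal totals and with a pseudocount of 0.1. The villus was lower than the crypt both in EC (log2 fold change -0.79, adjusted p = 0.00991) and in epi (-1.36, adjusted p = 4.35e-05), or -1.59 without villus epi replicate 2. The 7 stem cell markers, among them Lgr5 and Olfm4, summed to 17.5 to 19.9 FPKM in villus EC and 19.6 to 25.8 FPKM in villus epi, and to 969 to 1510 FPKM in crypt EC and 1543 to 1738 FPKM in crypt epi. Their part in the receptor levels was not tested, and in bulk libraries fewer cells of a type and less RNA per cell cannot be told apart.

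Hes1, the classical repressor that Notch turns on, varied widely between the libraries of both epi groups. It stood at 0.446, 0.826, 0.878 and 0.0996 FPKM in villus EC, against 1.65, 102, 4.74 and 5.71 FPKM in villus epi. All villus EC libraries were under 1 FPKM and all villus epi libraries above it, and the highest was villus epi replicate 2. The level fell by 2.73 ± 0.92 log2 units in villus EC (adjusted p = 0.0177), and by 1.61 ± 0.63 without that library, where it still passed the threshold. With a pseudocount of 5 the call was lost. In the crypt it was 12.6, 2.06, 3.48 and 3.43 FPKM in EC, against 7.93, 4.91, 18.6 and 51.3 FPKM in epi. Crypt EC replicate 1 overlapped crypt epi, and the difference of -1.51 ± 0.92 missed the threshold (adjusted p = 0.21) in the fit of all libraries but passed it without villus epi replicate 2, at the same size and a smaller error of 0.58. Between villus and crypt the difference was -1.81 in EC (adjusted p = 0.179), with no overlap, and -0.59 in epi (adjusted p = 0.612), or -1.71 without that library, where both passed.

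Hes6, which is known to counteract Hes1 and to promote differentiation of neurons, was the most abundant member in each of the 4 groups by mean. Villus EC libraries held 267.7, 245.2, 234.3 and 299.7 FPKM, against 78.0, 45.8, 106.6 and 95.8 FPKM in villus epi. The lowest villus EC library was above the highest villus epi library, and the rise was 1.73 ± 0.22 log2 units (adjusted p = 4.74e-06), or 1.48 ± 0.15 without villus epi replicate 2. In the crypt it was 160.1, 209.7, 210.0 and 202.0 FPKM in EC, against 140.8, 161.8, 102.5 and 133.4 FPKM in epi. Crypt EC replicate 1 lay within the range of crypt epi, the difference of 0.54 ± 0.22 missed the threshold (adjusted p = 0.0563), and it passed without villus epi replicate 2 and without crypt EC replicate 1. In epi the villus was lower than the crypt (log2 fold change -0.77, adjusted p = 0.00762), or -0.51 without the library that stood apart. In EC every villus library was above every crypt library. That difference of 0.42 missed the threshold (adjusted p = 0.188) in the fit of all libraries and passed it without villus epi replicate 2.

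The log2 ratio of Hes6 to Hes1, also chosen after the values had been seen and given with no test, averaged 7.42 ± 0.51 in villus EC and 2.96 ± 2.77 in villus epi (SD, n = 4 each), a difference of 4.46 that was 3.09 without villus epi replicate 2. In crypt EC it averaged 5.18 ± 1.11 and in crypt epi 3.13 ± 1.54, a difference of 2.05. Villus EC exceeded crypt EC by 2.23 in this ratio, and villus epi differed from crypt epi by -0.17, or 1.19 without that library.

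Atoh1, the factor that opens the secretory lineage, showed the largest log2 fold change of the 9 tested genes in the crypt. In the crypt it stood at 5.37, 5.93, 5.0 and 4.02 FPKM in EC, against 130.03, 139.4, 111.1 and 127.6 FPKM in epi. The crypt EC libraries formed a narrow band far under the crypt epi libraries, and the level fell by 4.40 ± 0.36 log2 units in EC (adjusted p = 8.99e-08). In the villus it was 19.3, 29.8, 26.3 and 13.5 FPKM in EC, against 23.3, 4.63, 19.9 and 13.2 FPKM in epi. Those groups overlapped and the difference was 0.65 ± 0.36 log2 units (adjusted p = 0.129), or 0.21 without villus epi replicate 2, the lowest library. Between the sites Atoh1 moved in opposite directions in EC and epi. Villus EC was above crypt EC in every library (log2 fold change 1.88 ± 0.36, adjusted p = 0.000991), and villus epi was below crypt epi in every library (-3.17 ± 0.36, adjusted p = 1.99e-06, or -2.72 without replicate 2).

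Spdef, an ETS factor of goblet and Paneth cell maturation, had the same order of groups. Its level was 3.29, 3.57, 4.44 and 2.27 FPKM in crypt EC, against 54.4, 45.6, 33.2 and 44.5 FPKM in crypt epi. No crypt EC library came near a crypt epi library, and the level fell by 3.37 ± 0.30 log2 units in EC (adjusted p = 2.27e-07). In the villus it was 9.50, 14.8, 12.4 and 6.58 FPKM in EC, against 13.4, 4.35, 11.2 and 7.90 FPKM in epi. Those groups overlapped, with a difference of 0.25 (adjusted p = 0.484) that was -0.03 without villus epi replicate 2. Spdef was higher in villus EC than in crypt EC (log2 fold change 1.40 ± 0.30, adjusted p = 0.00243) and lower in villus epi than in crypt epi (-2.23 ± 0.30, adjusted p = 1.2e-05, or -1.95 without replicate 2).

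Gfi1, a zinc finger repressor that keeps goblet and Paneth precursors from the endocrine path in mice, was found almost only in crypt epi. It was listed at 0.0973, 0, 0 and 0 FPKM in villus EC, against 0.0801, 0.0367, 0.455 and 0 FPKM in villus epi. Crypt EC libraries were listed at 0.0133, 0, 0.169 and 0.109 FPKM, against 1.47, 1.49, 1.70 and 4.89 FPKM in crypt epi. The 12 libraries outside crypt epi were all below 0.5 FPKM and those of crypt epi all above 1, with crypt epi replicate 4 the highest. The log2 fold change of EC against epi was -1.55 ± 0.23 in the crypt and -0.14 in the villus (adjusted p = 0.612, -0.18 without replicate 2), and that of villus against crypt in epi was -1.48 (-1.43 without replicate 2). Since its entry into the test rested on crypt epi, the differences from that group are descriptions and are read as no support. In EC the sites differed by -0.07 (adjusted p = 0.899).

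Markers of goblet and Paneth cells, which these 3 factors serve, were lower in crypt EC than in crypt epi for 8 of 8 genes in each list, beside the lower Atoh1, Spdef and Gfi1. In villus EC against crypt EC, where Atoh1 and Spdef rose, all 8 Paneth markers fell (median log2 fold change -7.93). The goblet markers were 3 higher and 2 lower there (-0.69). The goblet sum was higher in villus EC (10569 to 14648 FPKM) than in crypt EC (2445 to 3706 FPKM). A sum follows its most abundant markers, so with a negative median it is not read as a rise of the list. In villus EC against villus epi, where Atoh1 and Spdef were not called, 6 goblet markers were lower and 1 higher (-5.70), and 5 Paneth markers were lower and 1 higher (-3.11). In villus epi against crypt epi 5 goblet markers (-1.60) and 8 Paneth markers (-9.63) were lower and 0 of either list higher. The shares of all tested genes higher and lower were 23.2% and 20.0% for crypt EC against crypt epi and 10.3% and 16.2% for villus EC against crypt EC. They were 40.6% and 21.6% for villus EC against villus epi and 19.6% and 35.4% for villus epi against crypt epi. The 8 goblet markers summed to 10569 to 14648 FPKM in villus EC and 19907 to 38607 FPKM in villus epi, and to 2445 to 3706 FPKM in crypt EC and 62548 to 75006 FPKM in crypt epi. The 8 Paneth markers summed to 51.8 to 95.2 FPKM in villus EC and 281 to 531 FPKM in villus epi, and to 6380 to 9555 FPKM in crypt EC and 195985 to 225453 FPKM in crypt epi. At least 5 of the 8 markers of each list averaged 1 FPKM or more in every group, and none was at 0 in all libraries of a group. The part of goblet and Paneth cells in the Atoh1, Spdef and Gfi1 levels was not tested. Enterocyte markers, 9 in number, summed to 1700 to 2662 FPKM in villus EC and 100278 to 147203 FPKM in villus epi, and to 420 to 1288 FPKM in crypt EC and 2953 to 9083 FPKM in crypt epi, and their part in the villus comparison was not tested either.

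**Figure D3:**
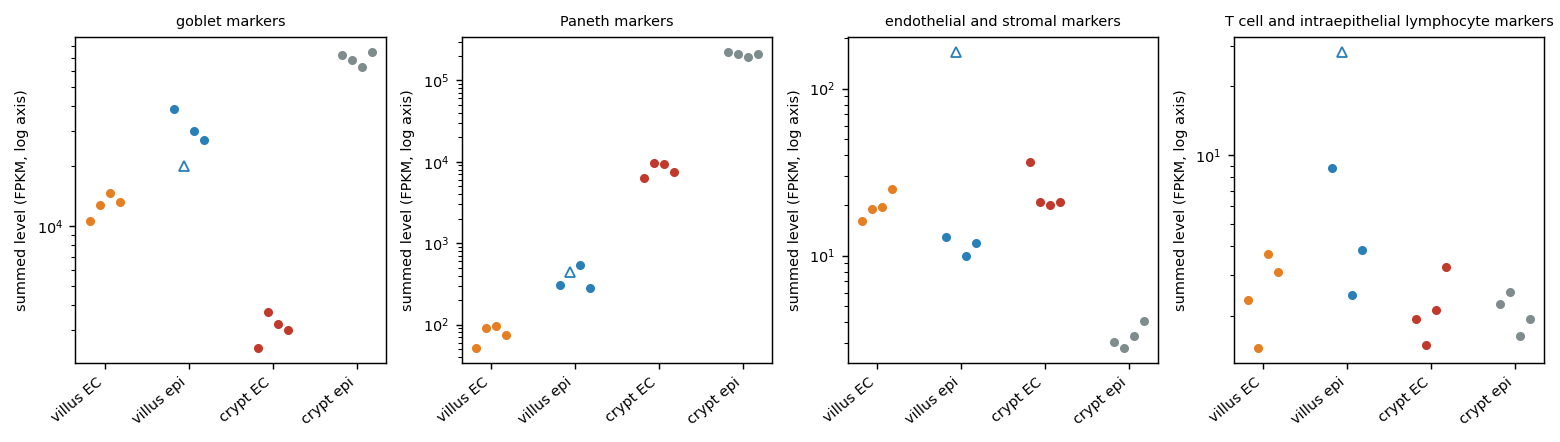
Summed level of the goblet, Paneth, endothelial and stromal, and T cell markers in every library of the 4 groups, in FPKM on a log axis. Goblet and Paneth sums are highest in the 4 crypt epi libraries. Villus epi replicate 2, drawn as a triangle, has the highest endothelial and stromal sum (166 FPKM) and T cell list sum (28.2 FPKM, of which 24.6 FPKM is Ptprc).

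Across sites, 2 of the 9 tested members were higher and 2 lower in villus EC than in crypt EC, where 26.5% of all tested genes were called, 10.3% higher and 16.2% lower. Those called were Atoh1 and Spdef, which rose, and Notch1 and Notch2, which fell. In villus epi 5 fell compared with crypt epi (Atoh1, Spdef, Notch2, Hes6 and Gfi1, whose entry into the test rested on crypt epi). The other 4 were not called, where 55.0% of genes were called, 19.6% higher and 35.4% lower. Without villus epi replicate 2 the counts were 5 higher and 3 lower in EC, where 46.9% of genes were called, and 6 lower in epi with none of the others called, where 67.3% were. In the fit of villus EC and crypt EC alone, 8 members were also called, where 47.3% of all genes were.

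The EC effect itself differed between villus and crypt for 4 of the 9 tested members, where this interaction was called for 42.9% of all genes, 26.9% higher and 16.0% lower. In all 4 the log2 fold change of EC against epi was higher in the villus than in the crypt. The difference was 5.05 ± 0.51 for Atoh1 (adjusted p = 1.59e-06), 3.63 ± 0.42 for Spdef (adjusted p = 6.73e-06), 1.41 ± 0.32 for Gfi1, whose entry into the test rested on crypt epi, and 1.19 ± 0.31 for Hes6 (adjusted p = 0.00579). Without villus epi replicate 2 these were 4.61, 3.35, 1.37 and 0.94, and all 4 were called. For Dll4 the difference was 0.97 ± 0.52 (adjusted p = 0.146) and for Dll1 1.43 ± 0.57 (adjusted p = 0.0534), and for Notch1, Notch2 and Hes1 it was -1.07, 0.57 and -1.22, with adjusted p values of 0.0969, 0.135 and 0.481. Without that library Dll1, Notch1 and Notch2 passed as well, at 0.87, -1.32 and 0.80, where 61.4% of all genes were called, 37.4% higher and 24.1% lower.

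**Figure D4:**
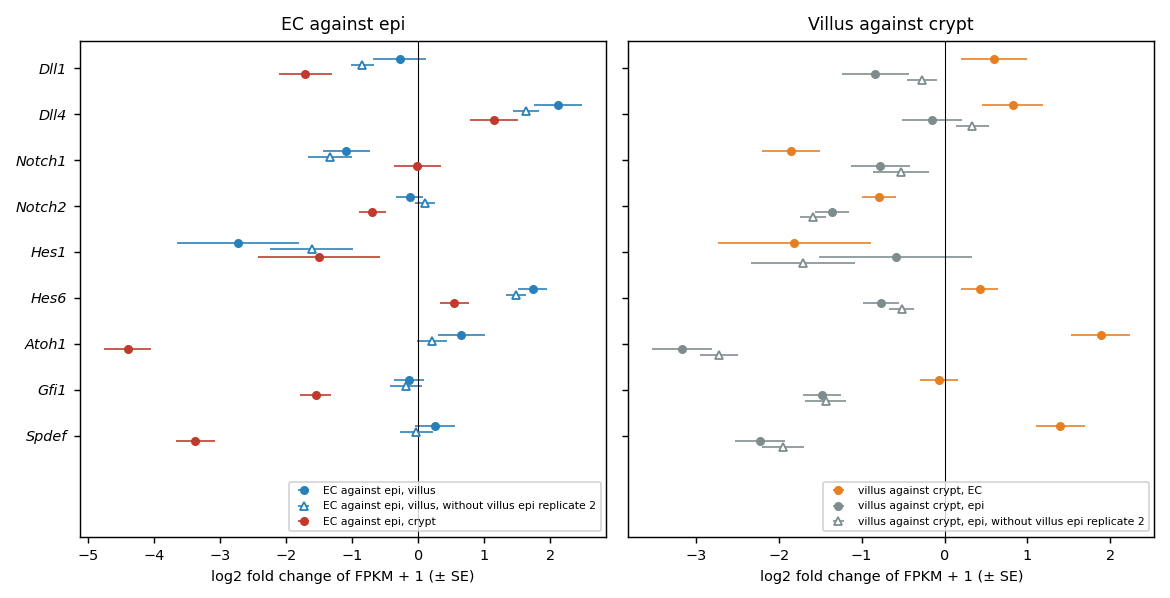
Log2 fold change of FPKM + 1 with its SE for the 9 tested genes, EC against epi in the villus and the crypt (left) and villus against crypt in EC and epi (right), with triangles for the fit without villus epi replicate 2. Atoh1 and Spdef lie at 0.65 and 0.25 for EC against epi in the villus (0.21 and -0.03 without that library), and at -4.40 and -3.37 in the crypt.

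Where groups did not overlap in any library, the counts over all 10 genes were as follows. They include Jag1, which is not among the tested genes behind the shares. Gfi1 is among the lower genes in both comparisons with crypt epi. Its entry into the test already required no overlap there, so it is read as no support. In villus EC against villus epi 2 were higher and 1 lower, where 52.8% of tested genes had no overlap, 35.1% higher and 17.8% lower, and without villus epi replicate 2 they were 2 and 3, where 71.8% of genes had no overlap, 46.3% higher and 25.6% lower. In crypt EC against crypt epi 1 was higher and 6 were lower, where 59.6% of genes had no overlap, 31.3% higher and 28.3% lower. For villus EC against crypt EC 5 were higher and 3 lower (45.2% of genes, 19.0% and 26.2% by direction), and for villus epi against crypt epi 0 were higher and 4 lower (48.3% of genes, 16.6% and 31.7% by direction), or 0 and 5 without replicate 2 (66.2% of genes, 25.3% and 40.9% by direction).

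Ordered by mean, Hes6 led in all 4 groups and Dll4 came next in both EC groups, with ranges apart from the genes beside it. In crypt epi Atoh1 came next to Hes6, with overlapping ranges, then Spdef and Dll1, which also overlapped. In villus epi each gene overlapped the next in this order. Across groups, Atoh1 and Spdef were both highest in crypt epi, then in villus EC and villus epi, which overlapped. They were lowest in crypt EC, which overlapped villus epi through villus epi replicate 2 only.

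The genes most like each member were found by Pearson correlation of log2(FPKM + 1) over the 16 libraries, among tested genes with a group mean of at least 5 FPKM. The libraries fall into 4 groups and share villus epi replicate 2, so these values describe group patterns. Atoh1 was most like Bace2 (0.994) and Spdef (0.990), and Spdef like Atoh1 and Bace2 (0.984). Dll4 was most like Asb6 (0.977), Rnf14 (0.974) and Rhov (0.973), and Hes6 like Rnf113a2 (0.982), Emc7 (0.974) and Camk1d (0.972). Dll1 went with B4galnt1 (0.944), Pdlim1 (0.943) and Galk1 (0.935), and Gfi1 with Sntb1 (0.919), Sytl4 (0.918) and Alppl2 (0.915). Notch2 was closest to Fen1 (0.976), Knl1 (0.972) and Shcbp1 (0.972), whereas Notch1 had weaker neighbours in Hebp1 (0.900), Slc1a2 (0.872) and Sdsl (0.862). Hes1 was nearest to Pank2 (0.930), Pex7 (0.919) and Tmem177 (0.917), and Jag1 to Prkar2a (0.953), Lgr4 (0.949) and Rp9 (0.942).

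Other genes of the pathway were followed in lists by role. Of 5 tested ligands and receptors outside the 10 genes, 3 were higher and 1 lower in EC than in epi of the villus, and 2 were higher in crypt EC than in crypt epi with the other 3 not called (median log2 fold change 0.86 and 0.47, beside 0.33 and 0.05 over all genes). Of all tested genes 40.6% were higher and 21.6% lower in the villus comparison, and 23.2% higher and 20.0% lower in that of the crypt. Dner, a Delta-like membrane protein of neurons, averaged 21.9 ± 2.94 FPKM in villus EC and 0.468 ± 0.230 FPKM in villus epi (SD, n = 4 each, log2 fold change 3.97), and 5.73 ± 2.07 FPKM in crypt EC and 0.453 ± 0.127 FPKM in crypt epi (2.15). Jag2 rose in villus EC over villus epi (2.71) and over crypt EC (1.92), Dlk1 rose in crypt EC over crypt epi (1.92) and was lower in villus EC than in crypt EC (-0.98), and Dll3 fell in villus EC (-0.94). Dlk1 passed the filter on low values through the crypt EC libraries and Dll3 through those of epi, where they are high, so their entry already required a difference. Notch4 passed only because 2 villus EC and 2 crypt EC libraries reached 1 FPKM. Between the sites 2 of the 5 were higher and 1 lower in EC, where 10.3% of all genes were higher and 16.2% lower. In epi 0 were called by limma, where 55.0% of all genes were, and 0 had an unadjusted p below 0.05.

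Of 19 genes of ligand endocytosis, receptor glycosylation and turnover, 16 were tested. Among them, Neurl1b reached 1 FPKM in 5 libraries, 4 of them villus epi. Any call of it that uses that group is read as no support. In villus EC 6 were higher and 4 lower than in villus epi, and in crypt EC 3 were higher and 4 lower than in crypt epi (median 0.21 and 0.12). These counts are close to the 62.2% and 43.2% of all genes that were called. Mfng, a Fringe glycosyltransferase that changes how Notch responds to its ligands, stood at 24.0 to 32.04 FPKM in villus EC against 0.674 to 3.88 FPKM in villus epi (log2 fold change 3.46). In the crypt it stood at 9.67 to 13.8 FPKM in EC against 0.582 to 0.832 FPKM in epi (2.95). Lfng, another Fringe, rose in villus EC (5.45, 3.83, 5.26 and 3.98 FPKM, against 0.0931, 0.417, 0 and 0 FPKM listed in villus epi, 2.32), whereas in the crypt it was at 1.30 to 2.95 FPKM in EC and 1.84 to 2.77 FPKM in epi (0.06, adjusted p = 0.841). Dtx3, a Deltex family gene, rose by 3.95 in villus EC and 2.80 in crypt EC, Dtx3l fell in villus EC (-2.52, or -1.92 without replicate 2), and Pofut1, which adds fucose to Notch, fell in crypt EC (-0.94). Villus EC was higher than crypt EC for 3 genes, Mfng (1.14), Neurl3 (0.79) and Lfng (0.72), where 10.3% of all genes were higher. The comparison of villus epi with crypt epi had 6 higher and 5 lower, beside 19.6% and 35.4% of all genes. Among them were Dtx4 (-1.78), Dtx3l (1.62) and Lfng (-1.54).

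Of the 9 genes of the ADAM and gamma-secretase cleavage step, 3 were higher and 2 lower in EC than in epi of the villus, and 2 were higher and 1 lower in crypt EC than in crypt epi (median 0.28 and 0.11, beside 62.2% and 43.2% of all genes called). Psen2, a catalytic subunit, averaged 32.1 ± 3.01 FPKM in villus EC and 9.74 ± 11.1 FPKM in villus epi, or 4.18 ± 0.81 FPKM without replicate 2 (log2 fold change 2.08, and 2.68 without it). The subunit genes Aph1c (1.09) and Ncstn (0.76) rose in villus EC, Aph1c (0.78) and Psenen (0.41) rose in crypt EC, and the sheddase gene Adam17 fell in crypt EC (-0.48, but 0.02 under equal totals). Between villus EC and crypt EC 0 were called by limma, where 26.5% of all genes were, with 1 at an unadjusted p below 0.05. In epi Psenen was higher (0.86) and Psen2 lower (-1.29) in the villus, where 55.0% of all genes were called.

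Of 17 genes of the nuclear complex and its corepressors, 15 were tested. In villus EC 6 were higher and 2 lower than in villus epi, and in crypt EC 6 were higher and 1 lower than in crypt epi (median 0.62 and 0.28, again beside 62.2% and 43.2% of all genes). Tle2, a Groucho corepressor that works with Hes proteins, averaged 21.0 ± 3.36 FPKM in villus EC and 1.56 ± 1.67 FPKM in villus epi (3.27), and 48.7 ± 2.38 FPKM in crypt EC and 2.03 ± 0.62 FPKM in crypt epi (4.06). Maml3, a coactivator, rose by 2.18 and 1.43 in villus and crypt EC, and Tle3 by 0.97 in crypt EC. Rbpj, the DNA-binding partner of all Notch receptors, averaged 2.45 ± 0.58 FPKM in villus EC and 6.86 ± 4.76 FPKM in villus epi, or 4.48 ± 0.45 FPKM without replicate 2 (log2 fold change -1.04, adjusted p = 0.00412, -0.68 without it). In the crypt Rbpj was at 4.99 ± 0.85 FPKM in EC and 5.94 ± 0.45 FPKM in epi (-0.22, adjusted p = 0.564, 0.24 under equal totals). Between villus and crypt EC 1 was higher and 3 lower, among them Tle2 (-1.19) and Rbpj (-0.80), beside 10.3% and 16.2% of all genes. In epi 1 was higher and 3 lower, among them Tle3 (1.28), Maml3 (-0.76) and Hdac1 (-0.73), beside 19.6% and 35.4% of all genes.

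Other Notch targets were few at these levels. Of 9 listed, 7 had an entry. Of these, 4 were tested, Hes7 only because 2 villus EC and 2 crypt EC libraries reached 1 FPKM. In each EC comparison 2 of these fell and the other 2 were not called (median -0.66 in the villus and -0.73 in the crypt, where 21.6% and 20.0% of all genes were lower). In the villus those were Hes2 (-1.99, or -2.85 without replicate 2) and Olfm4 (-0.45), and in the crypt Nrarp, a feedback inhibitor of Notch (-1.30), and Olfm4 (-0.56). Olfm4, a stem cell gene that depends on Notch in the mouse crypt, averaged 961 ± 253 FPKM in crypt EC and 1385 ± 107 FPKM in crypt epi (SD, n = 4 each), and 2.43 ± 0.48 FPKM in villus EC and 3.69 ± 0.61 FPKM in villus epi. Villus against crypt, it changed by -8.11 in EC and -8.21 in epi, and Hes2 by 2.11 and 3.19. The Olfm4 call in the villus was lost under equal totals (0.02), and that in the crypt was lost there too.

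Among the other regulators of secretory fate, 18 of 19 were tested. Pou2f3 passed the filter through the 4 crypt epi libraries alone, so any call of it that uses that group is read as no support. In villus EC 13 were higher and 4 lower than in villus epi, and in crypt EC 7 were higher and 4 lower than in crypt epi (median 2.74 and 0.24, beside 62.2% and 43.2% of all genes called). Neurod1, an endocrine bHLH factor, averaged 679 ± 91.8 FPKM in villus EC and 4.86 ± 0.81 FPKM in villus epi (6.86), and 228 ± 20.1 FPKM in crypt EC and 2.82 ± 1.14 FPKM in crypt epi (5.96). Pax4 rose by 5.96 in villus EC and 4.74 in crypt EC, and Foxa1 by 4.39 in villus EC. Creb3l4, a transcription factor held in the endoplasmic reticulum, fell by 4.18 in crypt EC.
Neurog3 stood at 11.8, 6.68, 6.04 and 8.48 FPKM in crypt EC against 6.98, 6.19, 2.81 and 5.93 FPKM in crypt epi, which overlapped (0.53, adjusted p = 0.0758, which passed the threshold without villus epi replicate 2). In the villus it was listed at 0 in 3 of 4 EC and 3 of 4 epi libraries and at 0.0592 and 0.269 FPKM in the others. Sox4, a factor of early endocrine progenitors, averaged 27.5 ± 4.68 FPKM in villus EC and 1.04 ± 1.40 FPKM in villus epi (3.99), and 8.56 ± 0.49 FPKM in crypt EC and 4.67 ± 3.84 FPKM in crypt epi (0.95, adjusted p = 0.0616, which also passed without villus epi replicate 2). Sox9, a crypt progenitor and Paneth cell factor, averaged 0.342 ± 0.139 FPKM in villus EC and 1.19 ± 0.73 FPKM in villus epi (-0.66), and 38.8 ± 2.86 FPKM in crypt EC and 40.8 ± 2.97 FPKM in crypt epi (-0.07, adjusted p = 0.8, 0.46 under equal totals).
In the villus against the crypt, 8 of these regulators rose and 3 fell in EC, beside 10.3% and 16.2% of all genes. In epi 2 rose and 12 fell, beside 19.6% and 35.4% of all genes. Sox9 (-4.89), Neurog3 (-3.15) and Klf4 (2.15) changed most in EC, and Bhlha15 (-4.96), Sox9 (-4.30) and Creb3l4 (-4.04) in epi. The interaction was called for 12 of the 18, all 12 with a higher EC effect in the villus, beside 42.9% of all genes, 26.9% higher and 16.0% lower.

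**Figure D5:**
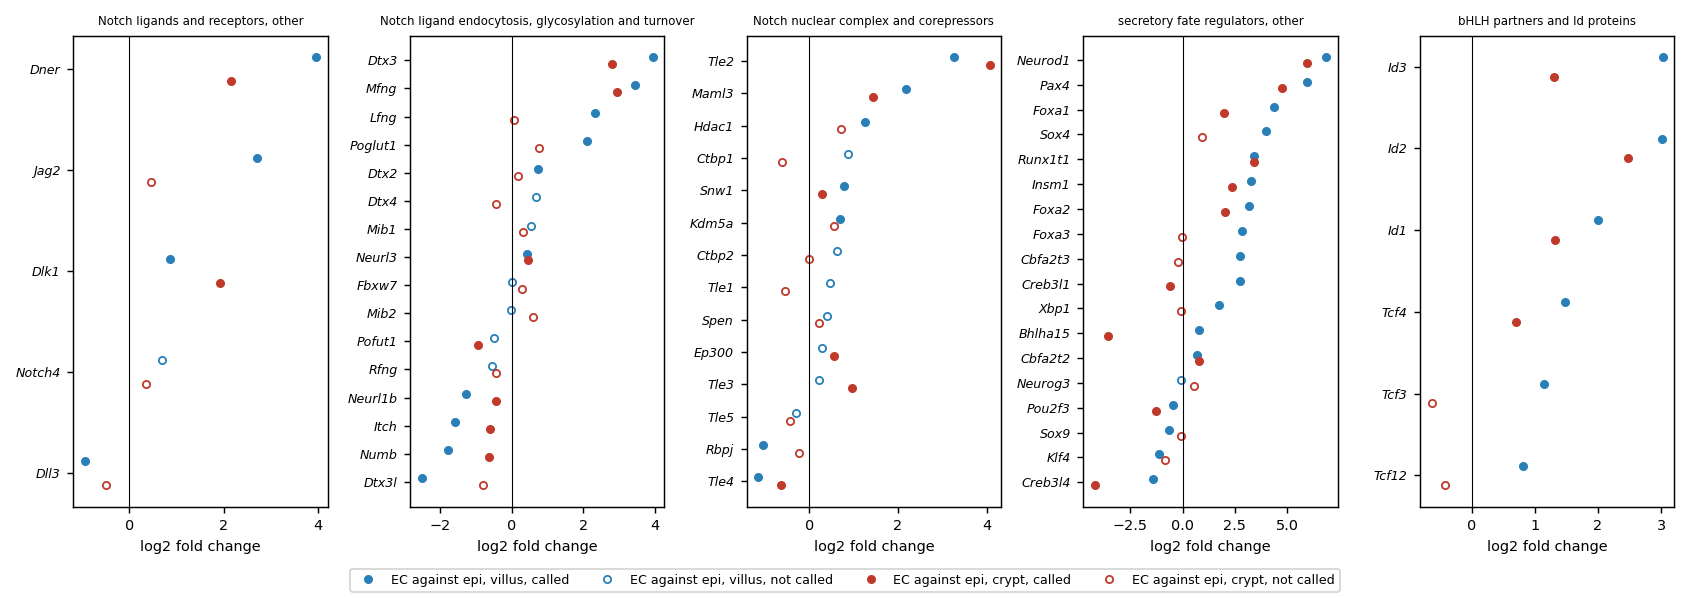
Log2 fold change of FPKM + 1 of EC against epi in the villus (blue) and the crypt (red) for tested genes of 5 lists, except those not reported, filled where the gene was called. Tle2, Dner, Mfng, Dtx3, Neurod1 and Pax4 are filled at both sites, and Lfng is filled in the villus and open in the crypt.

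The bHLH partners and Id proteins set how much an activator such as ATOH1 can bind, since E proteins dimerise with it and Id proteins occupy the E proteins. Of 6 tested, 6 were higher in villus EC than in villus epi, and 4 were higher in crypt EC than in crypt epi with the other 2 not called (median 1.74 and 0.99, beside 40.6% and 23.2% of all genes higher). Without villus epi replicate 2 those 2 passed as lower in crypt EC, where 64.5% of all genes were called. Id3 averaged 1187 ± 183 FPKM in villus EC and 174 ± 99.7 FPKM in villus epi (3.03), and 347 ± 146 FPKM in crypt EC and 127 ± 8.70 FPKM in crypt epi (1.30). Id2 rose by 3.01 and 2.48 and Id1 by 2.00 and 1.31 in villus and crypt EC. Without villus epi replicate 2 the villus values were 2.47, 2.46 and 1.70. Villus EC was higher than crypt EC for Id3 (1.91), Id1 (1.86) and Id2 (1.28), and in epi Tcf3 (-1.91) and Tcf12 (-1.34) fell and Id1 (1.17) rose in the villus.

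Without villus epi replicate 2, the counts of higher and lower genes in villus EC against villus epi (74.9% of all genes called, 48.4% higher and 26.5% lower) were 9 and 6 for endocytosis, glycosylation and turnover, 4 and 4 for cleavage, 8 and 2 for the nuclear complex, 13 and 3 for the other secretory regulators, and 6 higher of 6 for the bHLH partners and Id proteins. Villus epi against crypt epi (67.3% called, 25.5% higher and 41.8% lower) then had 8 and 7 for endocytosis, glycosylation and turnover, 4 and 2 for cleavage, 2 and 5 for the nuclear complex, 2 and 14 for the other secretory regulators, and 2 and 2 for the bHLH partners and Id proteins. The other ligands and receptors numbered 4 in that test, with 3 higher in villus EC than in villus epi, and Dll3 no longer entered it.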

How the data were processed

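RNA of 16 libraries, 4 in each of 4 groups, had been amplified as full-length cDNA from very small inputs. The authors deposited gene-level FPKM values, which per the submitters' processing notes were made with bcl2fastq 2.20, kallisto and sleuth on mm10, with the annotation release and the scaling between libraries not given there. No counts were used, so the depth is unknown and no counting interval is given.

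To the deposited FPKM 1 was added before log2. Genes with at least 1 FPKM in at least 4 libraries (14089 of 20072) entered limma 3.58.1 (R 4.3.3), in 1 fit of 4 group means over 16 libraries with a variance trend. Tests were two-sided, with Benjamini-Hochberg adjustment over all tested genes of a contrast. Jag1 was tested by exact permutation, and 2 ratios chosen after the data had been seen are given with no test. The 10 genes and the lists were chosen with earlier results of these data known. Named genes are the 10, 8 others whatever their values, up to 3 called genes with the largest change per list and contrast, and the 3 nearest by correlation, of which some are not reported here. Positions are from GENCODE M21 and promoters from RefSeq GRCm38.p6. On simulated data for EC against epi in the crypt, with 14089 genes, limma recovered 48% of genes changed by 1 log2 unit and 82% of those changed by 2, and 3.70% of its calls were false. There 100 genes of each size were changed, in crypt EC alone, and each gene had the same normal spread in all groups. In the data 43.2% of genes were called in this contrast, so these rates need not hold for them. Alternatives were 2 scalings, 2 pseudocounts, no filter, no variance trend, fits of 2 groups, a block and leaving out each library. Plots come from matplotlib 3.10.9 under Python 3.11.15.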

Additional observations from a re-analysis of the deposited data

Results flagged for a closer look

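A library was picked out when the highest or lowest of its 4 libraries lay far from the nearest other (Dixon's test at the 95% level), as in 19 of the 72 groups examined. For normal values chance does this in about 1 of 20 groups. That rate need not hold for FPKM values of genes that share the same libraries, so 19 is not read against it. Gfi1 in villus EC and Neurog3 in both villus groups had a single value above 0, which this rule always picks. Of these 19, 6 were values of villus epi replicate 2, namely Hes1 (102 FPKM), Jag1 (25.4 FPKM), Rbpj (14.0 FPKM), Sox4 (3.13 FPKM), Notch2 (1.24 FPKM) and Neurog3 (0.269 FPKM), each the highest of its group. Crypt EC replicate 1 was the highest of its group for Hes1 (12.6 FPKM) and Olfm4 (1337 FPKM) and the lowest for Hes6 (160.1 FPKM) and Lfng (1.30 FPKM). Crypt EC replicate 3 was the highest for Jag1 (0.611 FPKM).

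In crypt epi, replicate 4 was the highest for Gfi1 (4.89 FPKM) and Sox4 (10.4 FPKM), replicate 1 the highest for Mfng (0.832 FPKM) and replicate 3 the lowest for Dll1 (27.4 FPKM). In villus EC, replicate 2 was the highest for Notch1 (1.07 FPKM), replicate 1 for Gfi1 (0.0973 FPKM) and replicate 3 for Neurog3 (0.0592 FPKM). Villus epi replicate 1 was the highest for Gfi1b (3.76 FPKM), a gene of tuft cells, and its 7 tuft markers summed to 60.0 FPKM, against 7.61 to 35.3 FPKM in the other villus epi libraries.

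The effect of EC against epi differed between villus and crypt, by a test of the difference itself (limma, villus minus crypt), for Atoh1 (5.05 log2 units), Spdef (3.63), Gfi1 (1.41, a gene that entered the test through crypt epi alone) and Hes6 (1.19).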

How the results depend on the processing

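Of 3197 recomputed values of single genes and ratios, 3008 kept their direction and their side of the threshold, 118 lost a call, 45 gained one and 26 changed sign, the last of these among values of which only Adam17 and Olfm4 had been called. Under equal totals the log2 fold change of EC against epi in the crypt became 0.44 for Notch1, 0.24 for Rbpj, 0.46 for Sox9 and 0.0225 for Adam17, and in the villus 0.31 for Dll1, 0.00066 for Notch2 and 0.0208 for Olfm4. For villus against crypt in epi, Dll4 became 0.0454 under median-ratio scaling and Jag1 -0.42 with a pseudocount of 0.1, and Notch1 in the crypt became 0.0018 with the library number as a random block. The cause was not tested.

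With each library left out in turn, the value for EC against epi in the crypt ran from -0.14 to 0.13 for Notch1 and from -0.0174 to 0.24 for Lfng. In the villus it ran from -0.84 to 0.0134 for Dll1, -0.25 to 0.10 for Notch2, -0.0263 to 0.45 for Spdef, -0.0939 to 0.0207 for Neurog3 and -1.14 to 0.34 for Jag1. For villus against crypt in epi it ran from -0.53 to 0.34 for Dll4, -1.71 to 0.0540 for Hes1 and -0.93 to 0.55 for Jag1, and the Hes6 to Hes1 ratio was 1.19 without villus epi replicate 2. The number of genes called ran from 8168 to 10437 in the villus and 5261 to 8994 in the crypt for EC against epi, from 2906 to 6542 in EC and 7051 to 9382 in epi for villus against crypt, and from 5475 to 8563 for the interaction. Of the 9 genes tested here, the number called ran from 4 to 5, 5 to 8, 4 to 8, 4 to 6 and 3 to 7 in the same order. The highest value of each of these 10 ranges came without villus epi replicate 2, except the members for EC against epi in the villus and for villus against crypt in epi, where other libraries gave the same number.

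Fits of the 2 groups alone called 9204 genes for EC against epi in the crypt (6088 in the fit of all groups), and 6670 genes (3736) and 8 of the 9 tested here (4) for villus against crypt in EC. They called fewer genes for EC against epi in the villus (7267, against 8770) and for villus against crypt in epi (6109, against 7755). Libraries with the same replicate number did not deviate together (24 pairs, correlation -0.268 to 0.170, 4 of them over 0.1). A separate library number ends the name of each library, and libraries that share it did not either (10 pairs, -0.268 to 0.139, 1 over 0.1). Such correlations cannot show whether libraries came from the same mouse. Pairing is therefore unknown, and neither number was used in the main fit. With the replicate block, EC against epi called 8599 genes in the villus and 5861 in the crypt, and villus against crypt called 3475 in EC and 7589 in epi. Under it 4 of 127 single values lost their call, namely Pofut1, Id3, Rbpj and Id2, and none of the 9 tested genes did.

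The files give no read counts, so levels near 0, such as those of Gfi1 outside crypt epi and of Neurog3 in the villus, have no detection limit, and with 4 libraries a group 1 library can decide a call.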
